A study of Mus musculus with 11 samples.

Results

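The hair placode regulators examined here are 8 genes: Edar, Msx1, Msx2, Lhx2, Tbx1, Dlx3, Alcam and Adamts1. Their chromatin was followed in mouse esophageal cells with ATAC-seq, an assay that marks accessible DNA by the insertion of adapters with a transposase. The intervals called as accessible in 11 libraries were merged wherever they overlapped by at least 1 bp, which gave 124941 regions on chromosomes 1 to 19 and X. A region belongs to one of these genes when its midpoint lies nearest to that gene's body, no farther than 100 kb away. By that rule 93 of the 124941 regions belong to the 8 genes, with 28 at Alcam, 16 at Edar, 13 at Adamts1, 11 at Msx2, 8 each at Lhx2 and Dlx3, 6 at Msx1 and 3 at Tbx1. A region is called open in a library when that library's list holds an interval over it, and the number of open regions at a locus is the value given for each gene. It is a count of places, not a level of accessibility and not expression.

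A hair placode is the thickening of the embryonic epidermis from which a hair follicle grows. Wnt signals set up the field of placodes, and the ligand ectodysplasin, acting through its receptor Edar and NF-kappa-B, stabilises them, while secreted Wnt and BMP antagonists space them. Placode cells secrete Sonic hedgehog, whose pathway runs through the receptor-like protein Smoothened. The esophagus of the mouse is lined by a stratified squamous epithelium that carries no hair follicles.

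The libraries fell into 4 groups, and the study compared wild-type with Krt5-SmoM2 esophagus. The WT group (3 libraries) was wild-type esophagus of strain CD1, gated for low EpCAM, an epithelial adhesion protein. The SmoM2 group (3 libraries) was Krt5-SmoM2 esophagus of strain CD1, gated for high EpCAM; SmoM2 is a constitutively active Smoothened, and Krt5 encodes a keratin that basal cells of stratified epithelia make. The SmoM2-Sox9cKO group (3 libraries) was Krt5-SmoM2-Sox9fl/fl esophagus, also gated for high EpCAM; it carries the same SmoM2 transgene as the SmoM2 group plus floxed alleles of Sox9, a transcription factor gene of many progenitor cells. The Embryo group (2 libraries) was Krt8YFP esophagus at E13, gated on YFP, where Krt8 is a keratin of simple epithelia. The labels give no strain for the last pair of groups, no age for the adult tissue, and nothing on whether libraries of a group came from separate animals, so the tests reflect variation among these libraries alone, which may be technical. The WT group differs from both the SmoM2 and the SmoM2-Sox9cKO group in genotype and in EpCAM gate, and these cannot be told apart. In sorted tissue, fewer cells with an open region and weaker opening in each cell cannot be told apart either.

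Over the whole series, the adult lists held 69116 to 87966 intervals, whereas the Embryo lists held 24927 and 14281, so absence of an interval in Embryo weighs less. Read depth is not given in the sources used here. At the targeted gene, the Sox9 locus held 11, 7 and 9 open regions in the WT libraries, 9, 10 and 11 in SmoM2, and 10, 12 and 9 in SmoM2-Sox9cKO; such counts do not check the loss of floxed exons. Intervals at 4 Y-linked genes numbered 5, 0 and 0 in WT, 9 in each SmoM2 library, 8, 10 and 0 in SmoM2-Sox9cKO, and 0 in both Embryo libraries. Every SmoM2 library but not every WT library held such intervals, so their presence differed along with genotype and EpCAM gate. Of 11 epithelial marker loci, including Krt5, Krt14, Trp63 and Epcam, none passed the test in any comparison of adult groups, and their summed open regions ran from 103 to 117 in WT, 111 to 135 in SmoM2 and 118 to 127 in SmoM2-Sox9cKO.

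Of the 8 genes, 7 had promoters in the RefSeq table of GRCm38.p6, and all 8 regions over their annotated start sites were open in at least 7 of the 9 adult libraries. The table holds 9 start sites for these genes, and the inner start of Tbx1 had no region over it. The regions over the starts of Edar, Msx1, Tbx1, Alcam and Adamts1 and over the downstream start of Lhx2 were open in all 9. None of these 8 regions switched between adult groups in the sense used below, so the switched regions that follow lie away from the start sites. The 250 bases before the start site are printed for the 5 genes with the clearest differences, each on its minus strand and read 5′ to 3′. The stretch for Edar is chr10:58675697-58675946, for Msx1 chr5:37824586-37824835, for Msx2 chr13:53472781-53473030, for Alcam chr16:52453082-52453331 and for Adamts1 chr16:85803114-85803363. Capitals mark the only matches to 5 searched motifs.
Edar: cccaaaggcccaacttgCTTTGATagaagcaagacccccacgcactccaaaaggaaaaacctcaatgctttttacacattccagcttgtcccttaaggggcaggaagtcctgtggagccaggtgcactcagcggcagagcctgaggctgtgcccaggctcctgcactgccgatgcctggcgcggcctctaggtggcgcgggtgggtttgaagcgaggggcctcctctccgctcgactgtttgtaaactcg
Msx1: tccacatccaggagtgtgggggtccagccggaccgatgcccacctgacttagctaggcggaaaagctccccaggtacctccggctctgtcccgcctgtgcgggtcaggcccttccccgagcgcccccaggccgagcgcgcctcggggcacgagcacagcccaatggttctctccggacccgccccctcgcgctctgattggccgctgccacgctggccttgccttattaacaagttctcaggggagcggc
Msx2: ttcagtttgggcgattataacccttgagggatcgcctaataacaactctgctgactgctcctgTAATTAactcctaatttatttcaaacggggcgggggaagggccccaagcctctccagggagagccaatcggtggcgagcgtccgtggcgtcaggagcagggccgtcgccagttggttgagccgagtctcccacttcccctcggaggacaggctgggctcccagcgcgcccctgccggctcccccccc
Alcam: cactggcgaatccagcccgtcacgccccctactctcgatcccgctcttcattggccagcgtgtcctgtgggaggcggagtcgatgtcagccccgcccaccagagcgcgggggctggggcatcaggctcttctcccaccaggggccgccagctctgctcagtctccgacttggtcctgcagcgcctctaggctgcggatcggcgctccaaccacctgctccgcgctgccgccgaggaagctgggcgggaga
Adamts1: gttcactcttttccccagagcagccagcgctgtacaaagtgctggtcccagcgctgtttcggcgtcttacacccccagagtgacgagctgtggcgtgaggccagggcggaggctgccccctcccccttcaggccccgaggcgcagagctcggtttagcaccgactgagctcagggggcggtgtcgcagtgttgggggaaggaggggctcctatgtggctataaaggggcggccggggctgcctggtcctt

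The motifs were searched on both strands in 9 promoters of 7 of the genes, and each share in brackets is over all 32851 promoters of the table in windows of the same length. The Tcf/Lef motif CTTTGAT (3.205%) occurred once, at Edar, 233 to 227 bases before the start. The homeodomain motif TAATTA (4.84%) occurred once, at Msx2, 187 to 182 bases before the start. The letters GACCACCCA for Gli (0.2253%), ACAATG for Sox (10.69%) and TGANTCA for AP-1 (6.749%) are not in these windows. The 5 printed promoters had a G and C content of 58.8% at Edar, 68.0% at Msx1, 61.6% at Msx2, 69.2% at Alcam and 65.6% at Adamts1, against a median of 52.4% over all promoters.

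In SmoM2 against WT, open regions became fewer at the loci of the placode receptor Edar and the homeobox factors Msx1 and Msx2, and more numerous at the locus of the secreted protease Adamts1. The numbers of open regions at the other 4 loci did not pass the test. Thus 4 of the 8 loci were called, 1 that rose and 3 that fell, by limma with Benjamini-Hochberg adjustment at 0.05 over all 15365 loci tested. Over all these loci, 5.2% rose and 5.75% fell in the same comparison. The 8 genes were chosen with earlier results of these data known, so setting them beside all loci is a description and not a test. The median log2 change was −0.28 over the 8 loci and −0.12 over all loci. Because counts were scaled by each library's total, a locus whose counts did not move sits at −0.12. The changes and limma's tests below were not corrected for this offset, which enlarges the falls and shrinks the rises. Without this scaling none of the 8 passed, and the calls over all loci moved from 799 that rose and 884 that fell to 764 and 341. With stricter intervals (a −log10 q of at least 5), and with the top intervals of each list in equal number, 3 of the 8 passed, of which 2 rose and 1 fell: Alcam and Adamts1 rose under both, and Edar fell under the former and Msx1 under the latter. With a covariate for whether a library had Y-linked intervals, 2 of the 8 passed, Edar and Msx2, of 392 loci that rose and 335 that fell.

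**Figure D1:**
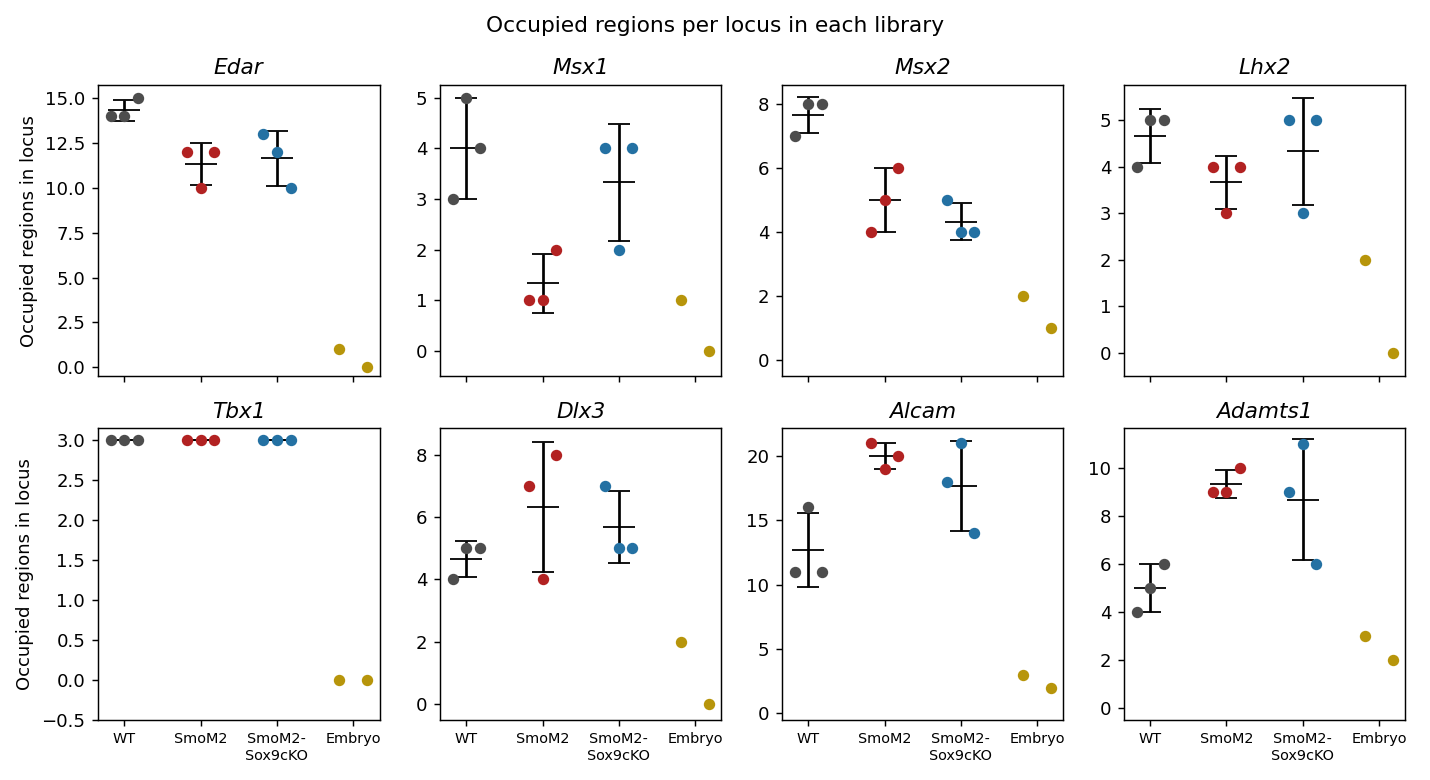
Number of open regions at each of the 8 loci (vertical axis, regions per locus; scales differ between panels) in every library, by group; points are libraries and bars are mean ± SD (n = 3) for the adult groups. WT libraries lie above all SmoM2 libraries at Edar, Msx1 and Msx2 and below all of them at Alcam and Adamts1, Tbx1 is at 3 in every adult library, and the Embryo libraries hold 0 to 3.

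Edar, the receptor for ectodysplasin and a member of the TNF receptor family, had 14, 14 and 15 open regions in the WT libraries, 12, 10 and 12 in SmoM2, and 13, 12 and 10 in SmoM2-Sox9cKO. All SmoM2 libraries lay below all WT libraries, and so did all SmoM2-Sox9cKO libraries. The scaled count fell by 0.45 on the log2 scale (SE 0.09, limma adjusted p = 0.0137) in SmoM2 against WT. The base pairs covered fell in step, from 11.65 ± 0.71 kb in WT to 8.54 ± 1.5 kb in SmoM2 (mean ± SD, n = 3 each). Most of the locus did not differ: 10 of its 16 regions, among them the start site, were open in all 9 adult libraries. The remaining 6 were each open in fewer SmoM2 than WT libraries, and no Edar region was open in more.

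Among those 6 Edar regions, the clearest lies deep in the gene body, at chr10:58609187-58609847, 66.2 kb from the start site. It was open in 3 of 3 WT libraries and in none of the 6 SmoM2 and SmoM2-Sox9cKO libraries, with a deposited fold enrichment of 3.307, 4.771 and 3.773 in the WT lists. They lay within the top 59.19 to 84.98% of their lists by p-value. With the stricter intervals, this region was open in 2 of 3 WT libraries and in none of the SmoM2 and SmoM2-Sox9cKO libraries. A region at chr10:58627619-58628063, 47.9 kb into the body, was open in 2 of 3 WT libraries and in none of the others. A pair of upstream regions, 15.3 and 38.8 kb before the start site, were open in 3 of 3 WT libraries, 2 of 3 SmoM2 libraries and 2 of 3 SmoM2-Sox9cKO libraries, and the same library lacked both in each of the latter groups. The nearer of the pair was a strong interval in the WT lists, with a fold enrichment of 9.021, 8.291 and 8.376.

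Msx1, a homeobox factor that acts downstream of BMP signals in skin appendages and teeth, had 3, 5 and 4 open regions in WT, 1, 1 and 2 in SmoM2, and 4, 2 and 4 in SmoM2-Sox9cKO. The SmoM2 libraries were the low ones, and the SmoM2-Sox9cKO libraries overlapped WT; the highest SmoM2 library equalled the lowest SmoM2-Sox9cKO library. In SmoM2 against WT the scaled count fell by 1.44 on the log2 scale (SE 0.26, limma adjusted p = 0.00981). With intervals of a −log10 q of at least 5 the change was −0.94 and the call ended (limma adjusted p = 0.173). Covered length went from 3.2 ± 0.7 kb in WT to 0.87 ± 0.29 kb in SmoM2 (mean ± SD, n = 3 each). In the SmoM2 libraries little but the start site was open at Msx1, and that start site region, chr5:37823415-37824878, was open in all 9 adult libraries.

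The Msx1 difference lay mostly in a pair of upstream regions. The region at chr5:37835762-37836984, 11.8 kb before the start, was open in 3 of 3 WT libraries, 0 of 3 SmoM2 libraries and 3 of 3 SmoM2-Sox9cKO libraries. Its deposited fold enrichment was 3.183, 6.288 and 5.35 in the WT lists, and it ran from 3.87 to 5.76 in the SmoM2-Sox9cKO lists. The interval also lies over the lncRNA Gm33993, so its assignment to Msx1 is by distance only. With the stricter intervals, it was open in 2 of 3 WT, 0 of 3 SmoM2 and 1 of 3 SmoM2-Sox9cKO libraries. The neighbouring region at chr5:37830433-37831520, 6.4 kb before the start, was open in 3 of 3 WT, 1 of 3 SmoM2 and 2 of 3 SmoM2-Sox9cKO libraries.

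Msx2, the close relative of Msx1, had 7, 8 and 8 open regions in WT, 4, 5 and 6 in SmoM2, and 5, 4 and 4 in SmoM2-Sox9cKO. Both SmoM2 groups lay wholly below WT. The scaled count fell by 0.71 on the log2 scale in SmoM2 against WT (SE 0.12, limma adjusted p = 0.00732). The difference lay in the far part of the locus: beyond 20 kb from the gene body, WT libraries had 4, 5 and 4 open regions and each SmoM2 library had 1. Within 20 kb the counts were 3, 3 and 4 in WT and 3, 4 and 5 in SmoM2, and with the locus limited to that distance the log2 change was 0.094 (limma adjusted p = 0.71). The start site region was open in 2 of 3 WT, 3 of 3 SmoM2 and 2 of 3 SmoM2-Sox9cKO libraries.

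Upstream of Msx2, 5 regions stand between 38.7 and 95.0 kb before the start site, and none of them was open in any SmoM2 library. The broadest of them, chr13:53552884-53554628 at 81.0 kb, was open in 3 of 3 WT libraries, 2 of 3 SmoM2-Sox9cKO libraries and both Embryo libraries. Its fold enrichment ran from 5.597 to 7.727 in the WT lists, where it ranked within the top 28.47 to 41.66% by p-value, the strongest ranks among the switched regions of the 8 genes. It was still open in 3 of 3 WT and 0 of 3 SmoM2 libraries with the stricter intervals and with lists of equal length, but the call of the Msx2 locus ended under both (log2 change −0.52, limma adjusted p = 0.353, and −0.73, limma adjusted p = 0.367). The other 4, at 38.7, 62.7, 86.4 and 95.0 kb, were open in 1, 2, 2 and 2 WT libraries and in no library of another group. The 100 kb limit cuts through this stretch: the nearest region outside, chr13:53572764-53573527 at 100.4 kb, was open in all 9 adult libraries and the last inside, at 95.0 kb, in 2 WT libraries alone.

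**Figure D2:**
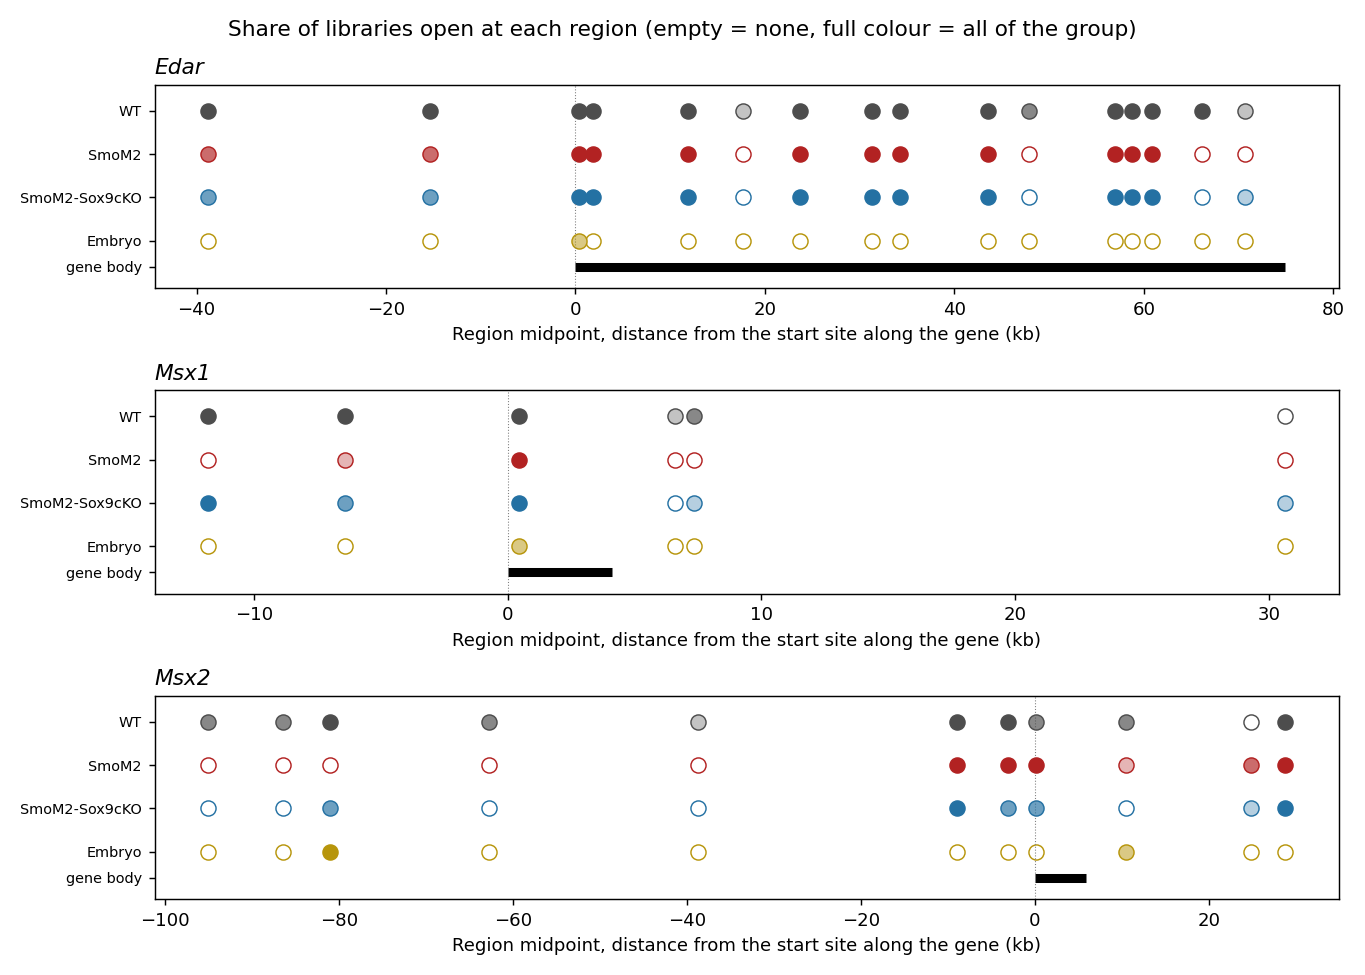
Regions of Edar, Msx1 and Msx2 by the distance of their midpoint from the start site (horizontal axis, kb, positive into the gene and beyond); each circle is filled in proportion to the share of a group's libraries in which the region was open, and the black bar is the gene body. At Msx2 the 5 regions from 38.7 to 95.0 kb upstream are empty in SmoM2, and at Msx1 the region 11.8 kb upstream is filled in WT and SmoM2-Sox9cKO and empty in SmoM2.

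Lhx2, a LIM homeobox factor of hair follicle progenitors, had 4, 5 and 5 open regions in WT, 4, 3 and 4 in SmoM2, and 5, 3 and 5 in SmoM2-Sox9cKO. The groups overlapped, and the log2 change of −0.44 in SmoM2 against WT did not pass (SE 0.18, limma adjusted p = 0.165). A region near the end of the gene, chr2:38368712-38369157, was open in 3 of 3 WT, 1 of 3 SmoM2 and 3 of 3 SmoM2-Sox9cKO libraries. It covers the start of the lncRNA Gm13584. Another, chr2:38378321-38379049, was open in 3 of 3, 1 of 3 and 2 of 3 libraries of the same groups.

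Tbx1, a T-box factor of pharyngeal development that also acts in hair follicle stem cells, had 3 open regions in each of the 9 adult libraries and none in Embryo. The same 3 regions were open every time, from the start site to 14.1 kb beyond it. Covered length was 2.4 ± 0.25 kb in WT, 1.61 ± 0.36 kb in SmoM2 and 1.6 ± 0.35 kb in SmoM2-Sox9cKO (mean ± SD, n = 3 each). In covered base pairs the change in SmoM2 against WT was −0.53 on the log2 scale (limma adjusted p = 0.0484), so the same regions were called narrower. That was the only 1 of 18 alternatives in which Tbx1 passed. Under that measure 1546 of all loci fell, against 884 in counts of regions. In counts of regions the change at Tbx1 was −0.12 (limma adjusted p = 0.487).

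Dlx3, a homeobox factor needed for hair shaft formation, had 4, 5 and 5 open regions in WT, 7, 4 and 8 in SmoM2, and 7, 5 and 5 in SmoM2-Sox9cKO. The second SmoM2 library matched the lowest WT library, the groups overlapped, and the log2 change was 0.24 (SE 0.19, limma adjusted p = 0.39). A region 14.5 kb from the gene body, chr11:95105408-95105878, was open in 0 of 3 WT, 2 of 3 SmoM2 and 3 of 3 SmoM2-Sox9cKO libraries. Another, 2.9 kb from it at chr11:95116915-95117447, was open in 0 of 3 WT, 2 of 3 SmoM2 and 1 of 3 SmoM2-Sox9cKO libraries and in 1 of 2 Embryo libraries.

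Alcam, an adhesion molecule of the immunoglobulin family also known as CD166, had 11, 16 and 11 open regions in WT, 21, 19 and 20 in SmoM2, and 18, 21 and 14 in SmoM2-Sox9cKO. Every SmoM2 library lay above every WT library, while the SmoM2-Sox9cKO libraries reached down into the WT range. The log2 change of 0.54 in SmoM2 against WT missed the threshold (SE 0.16, limma adjusted p = 0.0619). It passed without the second WT library, the one with 16 regions (0.68, limma adjusted p = 0.034), and in 8 of 18 alternatives in all. Of the 28 regions, 13 were open in more SmoM2 than WT libraries, 3 in fewer and 12 in as many.

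At Alcam, 5 regions were open in 3 of 3 SmoM2 libraries and 0 of 3 WT libraries, and they were spread over the locus from beyond the end of the gene to 60.7 kb before its start. The most distal upstream, chr16:52513211-52514337, was open in the 3 SmoM2 libraries and in no other library of the series. The region 8.6 kb before the start, chr16:52461393-52461884, and that 74.6 kb inside the gene, chr16:52378224-52378795, were each open in 2 of 3 SmoM2-Sox9cKO libraries as well. These 2 kept the pattern with stricter intervals, and the other 3 did not. The remaining pair, chr16:52428636-52429161 inside the gene and chr16:52234568-52235182 past its end, were open in 2 of 3 and 1 of 3 SmoM2-Sox9cKO libraries, respectively. The start site region of Alcam was open in all 11 libraries.

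Adamts1, a secreted metalloprotease that cleaves the matrix proteoglycan versican, had 4, 5 and 6 open regions in WT, 9, 9 and 10 in SmoM2, and 9, 11 and 6 in SmoM2-Sox9cKO. No SmoM2 library overlapped WT, and 1 SmoM2-Sox9cKO library equalled the highest WT library. The scaled count rose by 0.73 on the log2 scale (SE 0.18, limma adjusted p = 0.0351) in SmoM2 against WT, and covered length went from 4.32 ± 0.98 to 7.39 ± 0.51 kb (mean ± SD, n = 3 each). This call is fragile: limma's adjusted p rose to 0.109 and 0.0903 without the first and second WT libraries and to 0.0811, 0.0909 and 0.088 without each SmoM2 library, and the call held only without the third WT library.

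At Adamts1, 2 adjacent regions past the end of the gene were open in 3 of 3 SmoM2 and 0 of 3 WT libraries. The region at chr16:85720551-85721082, 82.3 kb beyond the start site, was also open in 3 of 3 SmoM2-Sox9cKO libraries, and its neighbour chr16:85721920-85722673, at 80.8 kb, in 2 of 3. Both kept this pattern with the stricter intervals and with lists of equal length. Just outside the 100 kb limit, chr16:85690699-85691331 was open in 0 of 3 WT, 3 of 3 SmoM2 and 1 of 3 SmoM2-Sox9cKO libraries. Nearer the gene, regions at chr16:85791491-85792175 and at chr16:85804172-85804551, which lies 1.2 kb before the start, were each open in 1 of 3 WT libraries and in all 6 others of the adult groups.

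**Figure D3:**
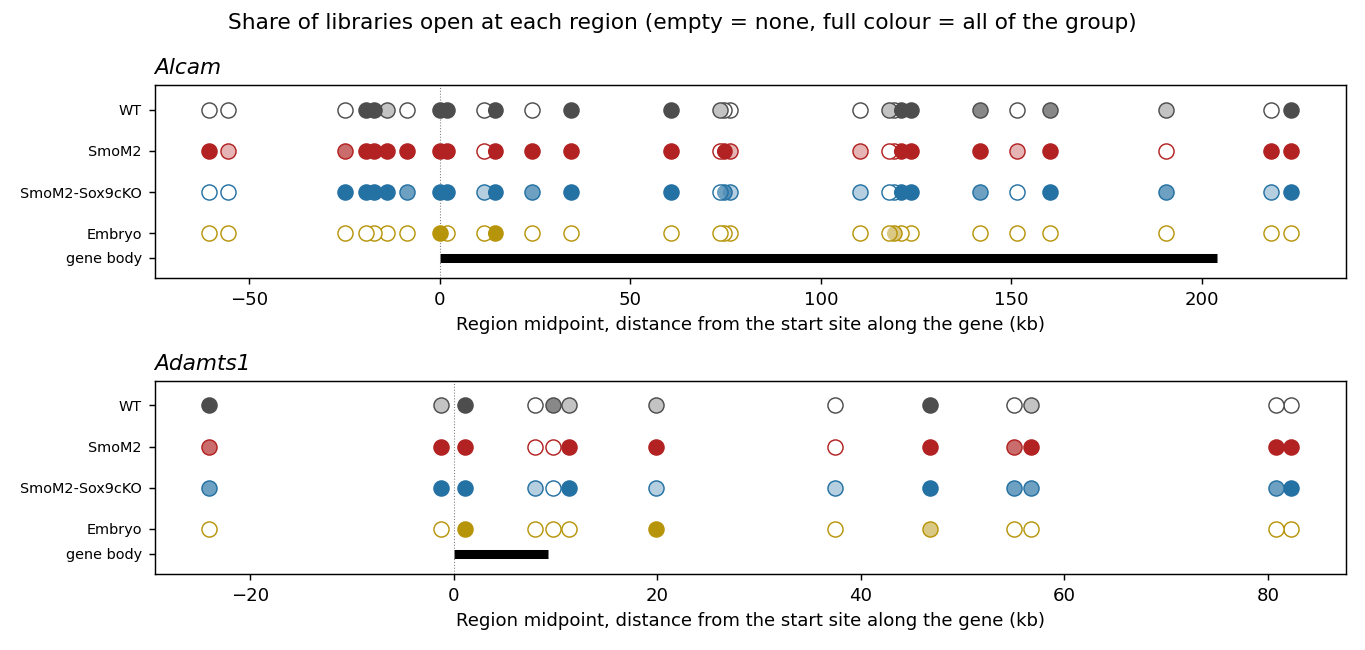
Regions of Alcam and Adamts1 by the distance of their midpoint from the start site (horizontal axis, kb, positive into the gene and beyond), drawn as for the other genes: circles filled by the share of a group's libraries that were open, black bar for the gene body. The regions 8.6 and 60.7 kb before the Alcam start and 80.8 and 82.3 kb beyond the Adamts1 start are empty in WT and full in SmoM2.

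By regions, 7 of the 88 that were open in at least 1 WT or SmoM2 library were gained, meaning open in 3 of 3 SmoM2 and 0 of 3 WT libraries, and 3 were lost, meaning the reverse. That is 7.955% gained and 3.409% lost, beside 7.0% and 3.34% of the 101325 regions near any gene, so the shares of switched regions were near the background. The 7 gained regions belong to Alcam (5) and Adamts1 (2), and the 3 lost to Edar, Msx1 and Msx2 (1 each). No locus had both. Alcam holds 28 of the 93 regions, and how often such a split occurs at other loci was not tested. For 1 region, 3 libraries against 3 cannot give an exact permutation p under 0.1, so none was tested alone.

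**Figure D4:**
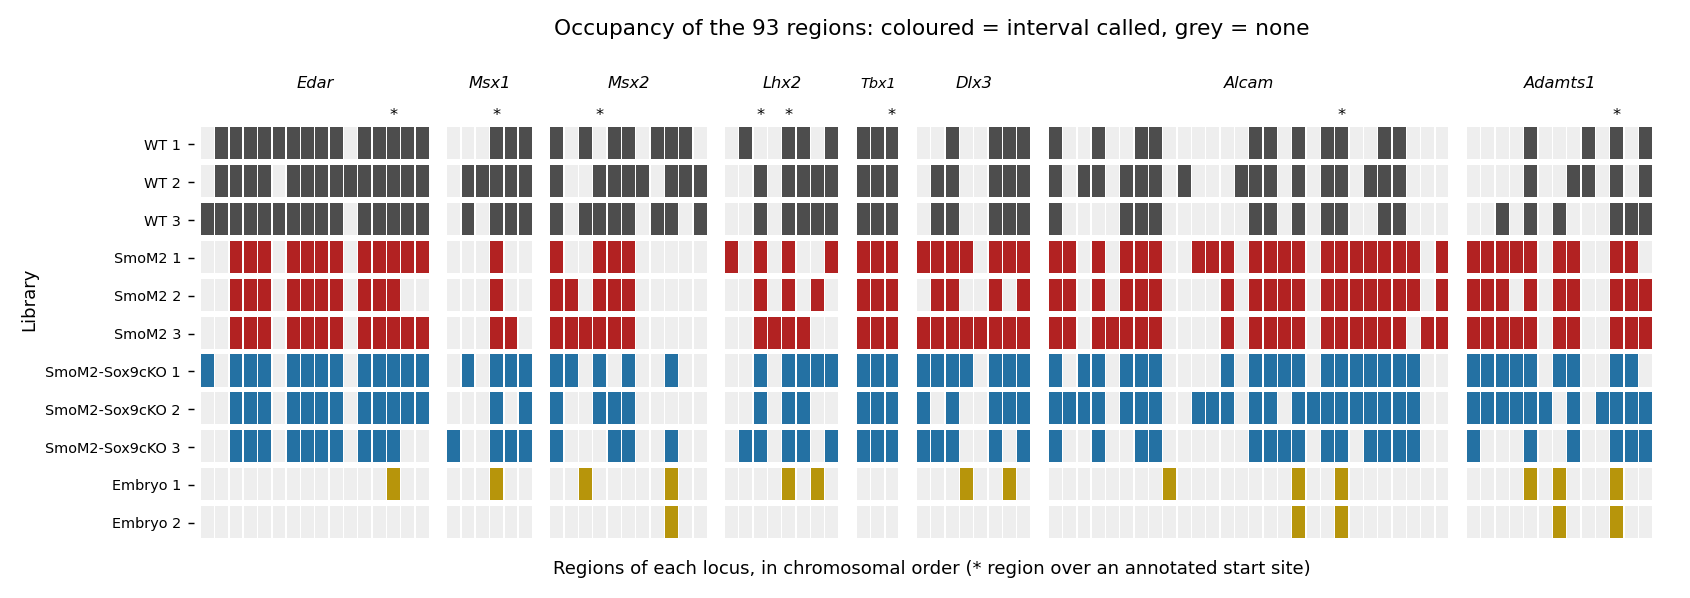
Each column is 1 of the 93 regions, grouped by gene in chromosomal order, and each row is a library; a coloured cell means that the region was open, grey that it was not, and asterisks mark regions over an annotated start site. The start site columns are filled in at least 7 of the 9 adult rows, the last Msx1 column is grey in SmoM2 and coloured in every WT and SmoM2-Sox9cKO row, and the Embryo rows are sparse.

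Some markers of other cell types moved in SmoM2 against WT, where 5.2% of all loci rose and 5.75% fell. Of 6 endothelial marker loci, 3 rose in SmoM2 against WT (Emcn, Cdh5 and Pecam1), and the list's summed open regions ran from 28 to 33 in WT, 38 to 48 in SmoM2 and 41 to 44 in SmoM2-Sox9cKO. Of 7 fibroblast loci tested of 11, Twist2 rose and Dpt fell, with sums of 25 to 28, 23 to 26 and 26 to 32 and with Lum at 0 in all adult libraries. Of 4 muscle loci tested, Acta2 fell, with sums of 17 to 20, 11 to 17 and 13 to 21. Of 4 immune loci tested, Ptprc rose, with sums of 8 to 12, 11 to 16 and 11 to 15 and with Cd79a at 0 in all adult libraries. None of 5 neural crest and glial loci passed (16 to 24, 24 to 25 and 20 to 27). In SmoM2-Sox9cKO against WT, 4 of the 6 endothelial loci rose (Tek, Emcn, Cdh5 and Pecam1), Twist2 rose, and Twist1 and Acta2 fell. Over all loci, 3.99% rose and 3.42% fell there. No marker locus passed in SmoM2-Sox9cKO against SmoM2. The part of these cell types in the results at the 8 loci was not tested.

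In SmoM2-Sox9cKO against SmoM2, which asks what changes when Sox9 is floxed in the SmoM2 background, none of the 8 loci passed limma's test at an adjusted p under 0.05. At an unadjusted p under 0.05 there was 1, Msx1. Over all 15365 loci 0.423% rose and 0.43% fell, so few calls were made anywhere. The median log2 change was 0.0 over the 8 loci and 0.06 over all loci. At Msx1, the mean went from 1.33 ± 0.58 open regions in SmoM2 to 3.33 ± 1.15 in SmoM2-Sox9cKO (SD, n = 3 each), a log2 change of 1.12 (SE 0.26, limma adjusted p = 0.117). The second SmoM2-Sox9cKO library was the low one, and without it the log2 change was 1.39 (limma adjusted p = 0.043). In covered base pairs Msx1 had 0.54, 1.01 and 1.07 kb in the SmoM2 libraries and 2.18, 2.01 and 2.66 kb in SmoM2-Sox9cKO, without overlap, and the log2 change was 1.15 (limma adjusted p = 0.0188). These were the only 2 of 18 alternatives in which Msx1 passed in this comparison. With stricter intervals its log2 change was 0.44 (limma adjusted p = 0.933).

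The other 7 loci had log2 changes between −0.13 at Alcam and 0.25 at Lhx2 in that comparison. Of the 81 member regions open in either group, 1 was gained and 1 was lost, which is 1.235% each, beside 0.783% gained and 1.37% lost over all regions near a gene. The gained region is the Msx1 region 11.8 kb upstream, and the lost one is the Alcam region 60.7 kb upstream. The Msx1 region was the only one of 92 open in the adult groups that was open in all WT and all SmoM2-Sox9cKO libraries and in no SmoM2 library, beside 0.256% of such regions near any gene. The Alcam region was the only one open in all SmoM2 libraries and in no other adult library, beside 0.818%. With intervals of a −log10 q of at least 5 neither switch was seen.

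In SmoM2-Sox9cKO against WT, Msx2 and Edar fell and no other locus passed, beside 3.99% of all loci that rose and 3.42% that fell. Msx2 went from 7.67 ± 0.58 to 4.33 ± 0.58 open regions (mean ± SD, n = 3 each), a log2 change of −0.82 (SE 0.12, limma adjusted p = 0.00455). That call ended with the 20 kb locus (−0.34, limma adjusted p = 0.359), with stricter intervals (−0.85, limma adjusted p = 0.262) and with lists of equal length (−1.26, limma adjusted p = 0.153). Edar went from 14.33 ± 0.58 to 11.67 ± 1.53, a change of −0.35 (SE 0.09, limma adjusted p = 0.0494), which was lost when any library of either group was left out. Msx1 changed by −0.32 (limma adjusted p = 0.602), Adamts1 by 0.65 (limma adjusted p = 0.0671) and Alcam by 0.41 (limma adjusted p = 0.171). Without the third SmoM2-Sox9cKO library, the one with 6 open regions at Adamts1, its change was 0.85 (limma adjusted p = 0.0181). That was the only 1 of 6 refits with a library left out in which Adamts1 passed. It passed in 3 of 18 alternatives in all, and limma's adjusted p reached 0.206. This comparison and that of SmoM2 with WT share the WT libraries, and in both the EpCAM gate differs along with genotype.

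By regions, 3 of 86 (3.488%) were gained and 1 (1.163%) lost against WT, beside 4.54% and 2.9% over all regions near a gene. The gained regions were the Adamts1 region at 82.3 kb, the Dlx3 region 14.5 kb from the gene body, and an Alcam region 24.9 kb upstream, chr16:52477549-52478326, which was also open in 2 of 3 SmoM2 libraries. The lost region was that of Edar at 66.2 kb. Of these regions, only that of Adamts1 kept its switch with the stricter intervals. With lists of equal length, that of Dlx3 alone did not keep it.

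**Figure D5:**
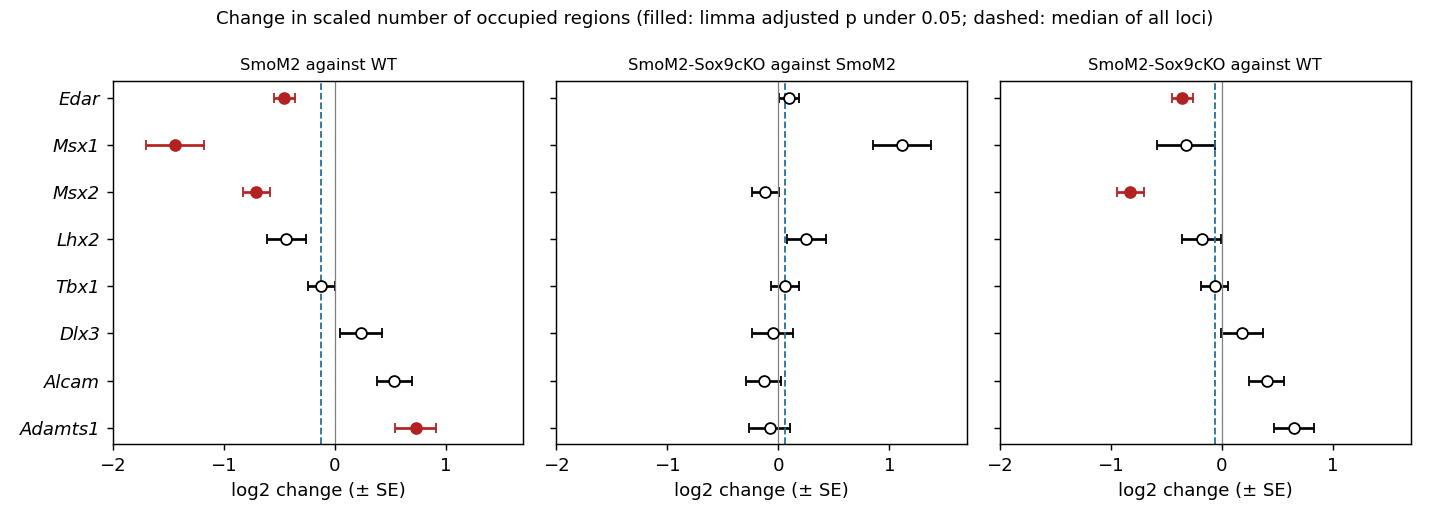
Log2 change in the scaled number of open regions (horizontal axis, ± SE from limma) for the 8 loci in the 3 comparisons of adult groups; filled dark red points have a limma adjusted p under 0.05 and the dashed line is the median of all 15365 loci. Edar, Msx1 and Msx2 lie left and Adamts1 right in SmoM2 against WT, no point is filled in SmoM2-Sox9cKO against SmoM2, where Msx1 is at 1.12, and Edar and Msx2 are filled in SmoM2-Sox9cKO against WT.

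In the embryonic esophagus, 14 of the 93 regions (15.05%) were open in at least 1 library, beside 21.81% of all regions near a gene, and 5 (5.376%) in both, beside 10.53%. The first Embryo library held 0 to 3 open regions at a locus and the second, the shorter list, 0 to 2. The regions open in both were the start sites of Alcam and Adamts1, the Alcam region 14.5 kb inside the gene, the Adamts1 region 19.9 kb past its start, and the Msx2 region 81.0 kb upstream. Alcam's start, its region at 14.5 kb and Adamts1's start were open in all 11 libraries. Only 1 region, chr16:52333564-52333963 inside Alcam, was open in Embryo and in no adult library. Over the 93 regions, 32 (34.41%) were open in all 9 adult libraries, beside 37.01% of all regions near a gene, and 44 (47.31%) lay inside a gene body, beside 60.51%.

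The wider placode pathway was followed in 44 listed genes, ligands, receptors, antagonists and transcription factors, of which 43 could be tested. In SmoM2 against WT none rose, 3 fell and 40 did not pass, beside 5.2% of all loci that rose and 5.75% that fell. The median log2 change of the 43 was −0.12, as over all loci. Tgfb2, a ligand of the TGF-beta family needed for follicle growth, went from 14.33 ± 0.58 to 8.0 ± 1.0 open regions (mean ± SD, n = 3 each; log2 change −0.93, limma adjusted p = 0.000818). Hoxc13, a homeobox factor of the hair shaft, went from 4.0 ± 1.0 to 1.67 ± 0.58 (log2 change −1.19, limma adjusted p = 0.0164). Dkk4, a secreted Wnt antagonist of placodes, went from 1.67 ± 0.58 to 0.33 ± 0.58 (log2 change −1.67, limma adjusted p = 0.02). In SmoM2-Sox9cKO against WT 1 of the 43 fell, Tgfb2 (log2 change −1.05, limma adjusted p = 0.000518), beside 3.42% of all loci. None of the 43 passed in SmoM2-Sox9cKO against SmoM2, beside 0.423% of all loci that rose and 0.43% that fell.

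Edar's ligand and adaptor did not pass in SmoM2 against WT: Eda had 1.33 open regions on average in both groups, and Edaradd had 8.67 in WT and 9.0 in SmoM2. Shh, the hedgehog ligand of the placode, changed by −0.41 (limma adjusted p = 0.117) and Lef1, a nuclear partner of beta-catenin, by 0.26 (limma adjusted p = 0.223). Wnt10a and Wnt10b, Wnt ligands of the placode, changed by −0.26 and 0.12 (limma adjusted p = 0.108 and 0.616), and the BMP antagonist Nog by −0.28 (limma adjusted p = 0.289).

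Among 34 relatives of the 8 genes, 30 were tested. Over all loci, 5.2% rose and 5.75% fell in SmoM2 against WT. Of the 30 relatives none rose, 26 did not pass and 4 fell. These were the T-box gene Tbx15 (log2 change −0.87, limma adjusted p = 0.02), the protease gene Adamts8 (−0.86, limma adjusted p = 0.0125), the homeobox gene Dlx4 (−0.84, limma adjusted p = 0.0112) and the TNF receptor gene Tnfrsf19, also known as Troy (−0.66, limma adjusted p = 0.0435). Dlx4 lies 15.2 kb from Dlx3 and went from 6.33 ± 0.58 to 3.67 ± 0.58 open regions, while Dlx3 had 4.67 ± 0.58 and 6.33 ± 2.08 (mean ± SD, n = 3 each). No relative passed in the other comparisons.

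Among the nearest protein-coding genes on either side of the 8, Cytl1 beside Msx1 and Zpld1 beside Alcam could not be tested. Of the others, 3 passed in SmoM2 against WT, and all of them fell, beside 5.75% of all loci that fell. Besides Dlx4, these were Gnb1l, 14.3 kb from Tbx1, which went from 6.33 ± 0.58 to 3.0 ± 0.0 open regions (mean ± SD, n = 3 each; log2 change −1.09, limma adjusted p = 0.000632), and Sh3rf3, 136.2 kb from Edar, which went from 7.0 ± 1.73 to 4.0 ± 1.0 (−0.86, limma adjusted p = 0.0389). Gnb1l differed beside a Tbx1 locus that held the same 3 regions in every adult library. The neighbours of Alcam and Adamts1 that could be tested, Cblb, Cyyr1 and Adamts5, did not pass (log2 changes 0.06, 0.03 and −0.53).

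Across the 9 adult libraries, the scaled counts of Alcam and Adamts1 moved together (Pearson's r = 0.811), as did those of Edar and Msx2 (0.782) and of Msx1 and Lhx2 (0.835). Alcam and Adamts1 ran opposite to Lhx2 (−0.768 and −0.797), Msx2 (−0.762 and −0.793), Msx1 (−0.713 and −0.71) and Edar (−0.672 and −0.675). These are descriptions over 9 libraries that share the group differences above. The loci most like each member are the highest of 9421 correlations, among loci with at least 2 open regions on average and with predicted genes left out. Values picked from so many over 9 libraries are high by selection. Those most like Edar were Mmadhc (0.967), Ror1 (0.945) and Tab3 (0.94), and those most like Msx1 were Trim71 (0.984), Trabd2b (0.963) and Commd7 (0.953). AI429214 (0.979), Tgfb2 (0.978) and Hand2 (0.973) were most like Msx2, and Pard6b (0.955), Slc45a4 (0.925) and Pgrmc2 (0.922) most like Lhx2. For Dlx3 these were Gclc (0.93), Trpm5 (0.904) and Thsd4 (0.885), for Alcam Axin2 (0.97), Mettl15 (0.957) and Dpyd (0.956), and for Adamts1 Fzd1 (0.98), Nedd9 (0.972) and Dcaf6 (0.957). Tbx1, with the same count in every adult library, has no pattern to match.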

How the data were processed

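Open chromatin was measured by ATAC-seq in 11 libraries, and 1 list of intervals per library was used, in 10 columns without a header. Per the submitters' processing notes, Trimmomatic, Bowtie2, Picard, MACS2 and deepTools were used with GRCm38/mm10 (versions not given in the sources used here). The score (column 5), the fold enrichment (column 7), the −log10 p-value (column 8), the −log10 q-value (column 9) and the summit position (column 10) are the authors' MACS2 output, as deposited. Fold enrichment and p-values were used only to describe or rank intervals within a list. Read depth is not known, so values were scaled by the number of open regions instead. Per-sample columns left without a sample: 0.

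Intervals on chromosomes 1 to 19 and X were merged into 124941 regions, with a median width of 693 bp, and 111956 (89.61%) lay within 100 kb of 1 of 21631 protein-coding gene bodies of the RefSeq table of GRCm38.p6. A midpoint inside several bodies went to the shorter one. Strands and start sites come from the RefSeq promoter table. Of each promoter, only the 250 bases before the start site were searched and printed. Coordinates are 1-based in GRCm38. Loci with a mean of at least 1 open region over the 9 adult libraries (15365) were tested with limma 3.58.1 in R 4.3.3, with a variance trend, on log2((regions + 0.5)/(total + 1) × 100000), with the 3 adult groups in 1 fit and Benjamini-Hochberg adjustment within each comparison at 0.05. A locus with the same count in all libraries of a group gets its spread from the library totals alone. All 8 members passed the filter. The steps were tested on simulated data first. Regions were gained or lost when open in 3 of 3 against 0 of 3 libraries, without a test. The 2 Embryo libraries entered no test.

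Genes named are the 8 members; up to 4 called genes each of the pathway and family lists per comparison, by size of change; the 3 loci most like each member; and its neighbours on either side. Eda, Edaradd, Shh, Lef1, Wnt10a, Wnt10b and Nog were named from the pathway list after their values were seen. The members, lists and tests were chosen with earlier results of these data known. Alternatives were stricter intervals, lists of equal length (69026 intervals), no scaling, pseudocounts of 1 and 0.25, no filter or a filter of 2 regions, covered base pairs with a pseudocount of 346.5 bp, a 20 kb locus, a replicate block, Y-linked intervals as a covariate, only the 6 libraries compared, and leaving out each library. Those for Embryo were chosen after seeing the data. Replicate numbers are shared between groups in the labels.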

Additional observations from a re-analysis of the deposited data

How the results depend on the processing

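Of 432 refits of the 8 loci, 372 kept their side of the threshold without reversing direction, 33 lost a call, 14 gained one and 13 reversed. A change of 0.0, as at Tbx1 without scaling in SmoM2 against WT, was counted as not reversed. Most of the 372 were loci that were not called to begin with and stayed uncalled. The 13 include Msx2 in SmoM2 against WT with the 20 kb locus, which also lost its call. In SmoM2 against WT, the members called went from 4 to 0 without scaling and to 2 with a 20 kb locus or the Y-linked covariate, it was 3 (2 that rose and 1 that fell) with stricter intervals or equal lists, against 1 that rose and 3 that fell, and the regions switched from 10 to 6 with intervals of a −log10 q of at least 5 or a 20 kb locus. In SmoM2-Sox9cKO against SmoM2, members called went from 0 to 1 with covered base pairs and ranged from 0 to 1 when a library was left out. Regions switched there went from 2 to 0 with stricter intervals and 1 with the 20 kb locus, and from 2 to 4 across libraries left out, with 4 without the second SmoM2-Sox9cKO library. In SmoM2-Sox9cKO against WT, members called went from 2 to 0 with stricter intervals or equal lists, and to 1 without scaling, with a pseudocount of 0.25, without the filter, with the 20 kb locus, with the replicate block, with only the 6 libraries, and, at the lowest, with a library left out (1 to 2). Regions switched there went from 4 to 2 with stricter intervals or the 20 kb locus, and from 4 to 9 with a library left out, with 9 without the second WT library, 8 without the third SmoM2-Sox9cKO library and 7 without the third WT library. Embryo regions went from 14 to 8 with stricter intervals and from 5 to 14 with a library left out, with 5 without the first.

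Reversals were mostly of small changes. In SmoM2 against WT, Msx2 was at 0.094 with the 20 kb locus and Dlx3 at −0.24 with stricter intervals. In SmoM2-Sox9cKO against SmoM2, Lhx2 was at −0.16 with equal lists, Dlx3 at 0.23 with stricter intervals, at 0.055 with covered base pairs and from −0.28 to 0.073 with a library left out, and Adamts1 from −0.27 to 0.12. In SmoM2-Sox9cKO against WT, Lhx2 was at 0.064 with covered base pairs and from −0.33 to 0.021 with a library left out; with stricter intervals Tbx1 was at 0.034 and Dlx3 at −0.0027. The cause of the reversals was not tested. Over all loci, the SmoM2-Sox9cKO calls against WT were 508 that rose and 261 that fell without scaling, against 613 and 525. In SmoM2 against WT, 1305 rose and 1546 fell with covered base pairs, against 799 and 884. Same-numbered libraries showed little shared deviation (correlations from −0.067 to 0.08). Differently numbered libraries were not compared, so this cannot tell whether the numbers pair them. With the replicate block 5 members were called in SmoM2 against WT, with Alcam added (0.54, limma adjusted p = 0.0158). Read depth is unknown and sets which intervals can be called, above all in the short Embryo lists.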
